A study of Homo sapiens with 4 samples.

Results

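CNTNAP2, MN1, PLCE1, RNF150, TTYH1 and IMPA2 are 6 of the 36601 genes measured in single U-2 OS cells, and were selected because their transcripts were much less frequent after irradiation than in untreated cells. They belong to neural adhesion and membrane biology (CNTNAP2, TTYH1), phosphoinositide signalling (PLCE1, IMPA2), transcription (MN1) and ubiquitin ligation (RNF150), and none is a core cell cycle gene. All 6 symbols were found once in the gene table of each library. Since the irradiated against untreated contrast chose them, its values are given as a description, with no test. U-2 OS, an osteosarcoma-derived human cell line, carries wild-type p53. The untreated group (UT) received 0 Gy and the irradiated group (IR) received 4 Gy of ionizing radiation, with 1 library per group in each of 2 experiments and no other allele or agent named in the labels. The labels give the time after irradiation as 48 h in the design and as 24 h in the treatment protocol, and the methods of the study give 48 h for single cells. All cells came from this line, so the groups are cultures of 1 tumour-derived line, and the study describes the experiments as independent sets of samples.

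CNTNAP2 encodes CASPR2, a cell adhesion protein of the neurexin superfamily that holds potassium channels in place along myelinated axons. PLCE1 encodes phospholipase C epsilon, which is activated by RAS and RAP small GTPases and splits a membrane inositol lipid into the second messengers inositol trisphosphate and diacylglycerol, and IMPA2 encodes an inositol monophosphatase, an enzyme class that returns inositol phosphates to free inositol and is inhibited by lithium. MN1 encodes a transcriptional co-regulator known from chromosomal rearrangements in meningioma and myeloid leukaemia, RNF150 encodes a transmembrane RING protein of the PA-TM-RING family of ubiquitin ligases, and TTYH1 encodes a tweety family membrane protein best known from the brain.

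In GRCh38 coordinates of GENCODE release 44, CNTNAP2 lies on chr7:146116002-148420998 (plus strand), one of the longest human genes at 2304997 bases. MN1 lies on chr22:27748277-27801756 (minus strand), PLCE1 on chr10:93993931-94332823 (plus), RNF150 on chr4:140859807-141212877 (minus), TTYH1 on chr19:54415219-54436904 (plus) and IMPA2 on chr18:11981025-12030877 (plus). The assay reads the 3′ end of polyadenylated RNA, so the last exon carries most of the signal expected of a gene. In none of the 6 did the last exon of the canonical transcript overlap an exon of another annotated gene. Elsewhere in PLCE1 the antisense gene PLCE1-AS1 shares exonic sequence, and it held at most 1 count in any library. An unnamed antisense gene (ENSG00000227407) shares exonic sequence with TTYH1, the pseudogene DUTP3 lies over a CNTNAP2 exon on the same strand, and the handling of strand is not given in the sources used here.

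Upstream sequence, the 250 bases before the RefSeq start, is shown for the 4 members that the RefSeq promoter table (GRCh38.p14) held, CNTNAP2, PLCE1, RNF150 and TTYH1, to show their base composition and the promoter elements they hold. MN1 and IMPA2 were not matched. The windows are chr7:146116551-146116800 (plus) for CNTNAP2, chr10:94088776-94089025 (plus) for PLCE1, chr4:141133470-141133719 (minus) for RNF150 and chr19:54415214-54415463 (plus) for TTYH1, each written 5′ to 3′ along the gene. Capitals mark the letters of a motif searched on both strands.
CNTNAP2: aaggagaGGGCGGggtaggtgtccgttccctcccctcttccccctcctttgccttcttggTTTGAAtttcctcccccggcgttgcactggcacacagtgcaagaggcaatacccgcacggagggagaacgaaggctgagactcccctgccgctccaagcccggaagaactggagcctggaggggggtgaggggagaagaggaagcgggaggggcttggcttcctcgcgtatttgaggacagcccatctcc
PLCE1: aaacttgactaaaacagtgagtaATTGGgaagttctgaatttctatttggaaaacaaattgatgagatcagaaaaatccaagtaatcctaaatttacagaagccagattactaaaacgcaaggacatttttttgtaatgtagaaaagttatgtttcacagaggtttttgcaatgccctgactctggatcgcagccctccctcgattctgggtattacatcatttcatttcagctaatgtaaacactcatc
RNF150: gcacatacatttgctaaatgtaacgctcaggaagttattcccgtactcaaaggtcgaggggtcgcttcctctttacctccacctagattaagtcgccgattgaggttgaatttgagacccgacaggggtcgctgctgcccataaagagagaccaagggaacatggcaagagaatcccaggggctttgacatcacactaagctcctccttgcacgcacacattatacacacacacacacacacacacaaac
TTYH1: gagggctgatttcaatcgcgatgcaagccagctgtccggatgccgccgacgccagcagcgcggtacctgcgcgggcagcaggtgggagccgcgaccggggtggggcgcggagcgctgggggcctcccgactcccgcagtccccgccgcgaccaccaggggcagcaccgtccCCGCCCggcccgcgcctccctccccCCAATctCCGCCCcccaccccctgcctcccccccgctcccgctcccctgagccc
The share of G and C was 62.4% for CNTNAP2, 35.2% for PLCE1, 49.2% for RNF150 and 77.6% for TTYH1, around a median of 58% over 35116 promoter windows. The RefSeq starts of PLCE1 and RNF150 lie 95095 and 79408 bases inside the GENCODE gene, so these windows belong to internal starts. Those of CNTNAP2 and TTYH1 lie 799 and 245 bases inside it. The CNTNAP2 window thus lies wholly, and the TTYH1 window mostly, within the annotated gene. Which start is used in U-2 OS cells was not measured. The CHR letters TTTGAA, an element of many cell cycle promoters, occurred 1 time in CNTNAP2, from 190 to 185 bases before the start, and in 13.3% of all windows. The GC box letters GGGCGG occurred 1 time in CNTNAP2 and 2 times in TTYH1 (42.6% of all windows), and CCAAT occurred 1 time each in PLCE1 and TTYH1 (32% of all windows). No E2F site (TTTCCCGC, TTTGGCGC or TTTCGCGC, 2.32% of all windows), no TATAAA (10.7%) and no p53 half-site consensus (5.57%) was found in the 4 windows. Which letters a window holds is a description, and nothing about a factor was measured here.

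The 4 libraries held 1220 cells, 358 and 367 in UT and 247 and 248 in IR (experiments 1 and 2), with 5736339 to 6810079 counts per library and a median of 15662 and 17627 counts per cell in UT against 20181 and 22035 in IR. Libraries shared 173 to 350 cell barcodes, and profiles with the same barcode correlated at 0.461 to 0.493 on average against 0.459 to 0.491 with other barcodes. Of 12 osteoblast and mesenchymal markers, 6 were above 10 CPM (a gene's counts scaled to the same library total) in every library, the highest being SPARC, COL1A1 and VIM at 1114 to 2377 CPM, while COL1A2 was at 0.511 to 2.64 CPM and SP7, an osteoblast factor, at 0. Of 23 neural markers, 7 were above 10 CPM in every library, TUBB3 and NES among them, and 5 were under 1 CPM throughout, among them SOX10 at 0. Their summed level was 511.8 to 671.4 CPM in UT and 559.2 to 651 CPM in IR. CDKN1A, which encodes the cell cycle inhibitor p21, stood at 323.7 and 277.4 CPM in UT and 958.8 and 914.3 CPM in IR.

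All 6 transcripts, which were chosen for their fall, were lower in both IR libraries than in either UT library. CNTNAP2 had the largest fall among them, followed by MN1. CNTNAP2 was at 32.9 and 31.6 CPM in UT experiments 1 and 2 and at 7.5 and 6.14 CPM in the matching IR libraries. UT was 32.2 ± 0.933 and IR 6.82 ± 0.957 CPM (mean ± SD, n = 2 libraries each), a ratio of means of 4.73. Only 43 and 38 CNTNAP2 counts were left in the IR libraries, against 193 and 215 in UT, so the IR level rests on few molecules. TTYH1 was at 34.6 and 38 CPM in UT and at 11.7 and 15.8 CPM in IR (UT 36.3 ± 2.43, IR 13.8 ± 2.94), a ratio of 2.64, the smallest of the 6. Its IR libraries differed more from each other than those of any other member (experiment 2 over experiment 1, 1.36), and both lay under both UT libraries.

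PLCE1 was at 52.5 and 53.4 CPM in UT and at 19.4 and 18.8 CPM in IR (UT 53 ± 0.679, IR 19.1 ± 0.424), a ratio of 2.78. IMPA2, which acts on the products of the same lipid pathway, was at 40.2 and 49.8 CPM in UT and at 15.7 and 15.4 CPM in IR (UT 45 ± 6.77, IR 15.5 ± 0.233), a ratio of 2.9. The 2 experiments disagreed on the UT level of IMPA2 by a factor of 1.24 and hardly on its IR level. MN1 was at 42.3 and 44 CPM in UT and at 12.7 and 13.6 CPM in IR (UT 43.2 ± 1.27, IR 13.2 ± 0.601), a ratio of 3.28. RNF150 was at 32.2 and 39.5 CPM in UT and at 12.6 and 14.2 CPM in IR (UT 35.9 ± 5.16, IR 13.4 ± 1.18), a ratio of 2.68. For every member the highest IR library lay below the lowest UT library. The share of all genes with such a separation was not counted, and since this contrast chose the members nothing is read from it.

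**Figure D1:**
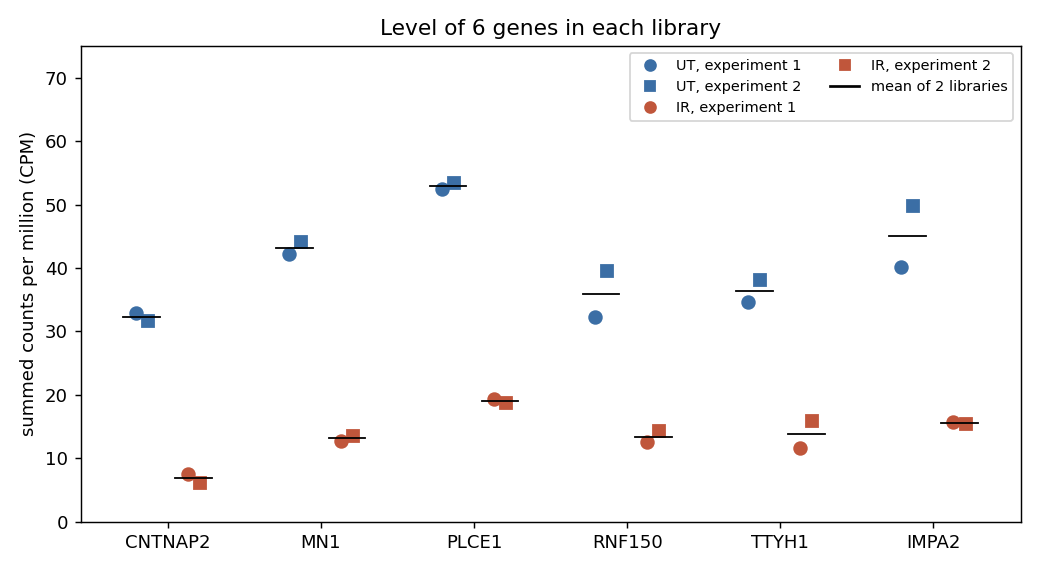
CPM (linear axis from 0) of the 6 genes in each library, UT in blue and IR in red, experiment 1 as circles and experiment 2 as squares, with the mean of 2 libraries as a line. Every IR point lies under every UT point of the same gene, and CNTNAP2 is lowest in IR at 7.5 and 6.14 CPM.

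Fitted over all 14647 genes tested with edgeR, the log2 fold change of IR against UT was -2.32 ± 0.21 (SE) for CNTNAP2, -1.79 ± 0.17 for MN1, -1.61 ± 0.19 for IMPA2, -1.55 ± 0.16 for PLCE1, -1.50 ± 0.20 for RNF150 and -1.48 ± 0.21 for TTYH1. All 6 were below the threshold of an adjusted p of 0.05, which 0.847% of all genes tested met in the lower direction, and since this contrast chose the genes nothing is read from that count. Among 8476 genes with a group mean of at least 20 CPM, counted from the largest fall, CNTNAP2 stood at place 2, MN1 at 4, IMPA2 at 7, PLCE1 at 8, RNF150 at 11 and TTYH1 at 13. The order is a description, and the SEs of IMPA2, PLCE1, RNF150 and TTYH1 cover one another's values.

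The size of the fall depended on what counts were set against, since IR cells held more counts than UT cells. Per cell, the UT mean was 3.44 times the IR mean for CNTNAP2, 2.38 for MN1, 2.12 for IMPA2, 2.02 for PLCE1, 1.95 for RNF150 and 1.91 for TTYH1. CNTNAP2 fell from 0.539 and 0.586 counts per cell to 0.174 and 0.153, and PLCE1 from 0.86 and 0.992 to 0.449 and 0.468. Set against the spike-in RNA of each library, the ratios of means were 2.83 for CNTNAP2, 2.09 for MN1, 1.8 for TTYH1, 1.73 for PLCE1, 1.7 for IMPA2 and 1.66 for RNF150, and, as spike-in levels differed between experiments, these ratios weigh experiment 1 most. In experiment 2 alone the log2 ratios per spike-in were -2.01 for CNTNAP2, -1.35 for MN1 and IMPA2, -1.16 for PLCE1, -1.13 for RNF150 and -0.92 for TTYH1, which was then last. Spike-ins took 0.318% and 0.192% of counts in experiment 1 against 1.21% and 0.953% in experiment 2. Within an experiment all 6 genes were lower in IR on all 3 scales, with log2 ratios of -0.62 (IMPA2 and RNF150 per spike-in, experiment 1) to -2.36 (CNTNAP2 in CPM, experiment 2). For comparison, MCM2, a replication licensing gene, was 0.03 higher on the log2 scale per spike-in in experiment 1 and 0.59 lower in experiment 2 (log2 ratio -0.59). The cycle genes MKI67 and TOP2A were lower in both, with log2 ratios per spike-in of -0.44 and -0.83 for MKI67 and -0.23 and -0.44 for TOP2A. In sums over a library, fewer cells with a transcript and less of it per cell cannot be told apart.

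**Figure D2:**
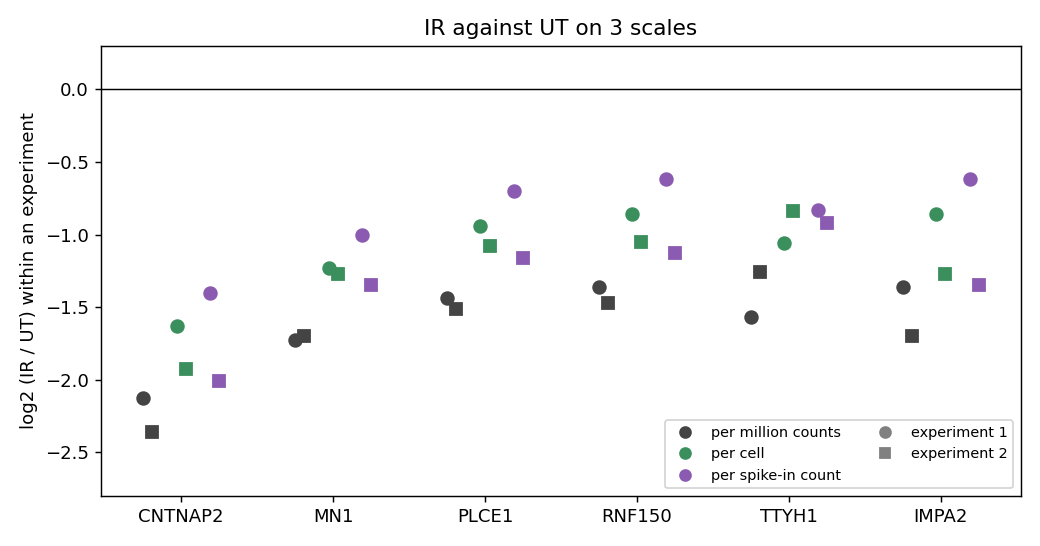
log2 ratio of IR over UT within each experiment for the 6 genes (circles for experiment 1, squares for experiment 2), computed from CPM (dark grey), per cell (green) and per spike-in count (purple). All points lie below 0, from -2.36 to -0.62, and the ratios per cell and per spike-in lie closer to 0 than those from CPM.

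The share of cells with at least 1 UMI (unique molecular identifier) of a member was compared after each cell was thinned to 8000 UMIs, which 333 and 356 UT cells and 231 and 232 IR cells allowed. CNTNAP2 was detected in 20.7% (95% exact interval 16.5 to 25.5) and 22.8% (18.5 to 27.5) of UT cells and in 6.49% (3.68 to 10.5) and 6.03% (3.34 to 9.92) of IR cells. MN1 was detected in 27.9% and 26.1% of UT cells against 9.09% and 11.6% of IR cells, and PLCE1 in 29.7% and 32.6% against 13.4% and 11.2%. RNF150 was detected in 18.6% and 25.6% of UT cells against 7.79% and 8.19% of IR cells, TTYH1 in 20.4% and 28.6% against 9.96% and 11.2%, and IMPA2 in 23.1% and 32.6% against 13% and 15.5%. No share in an IR library reached that of a UT library, and since the members were chosen for their fall nothing is read from that. The intervals cover counting error only. No cell held more than 10 counts of any member, which leaves these genes far from any ceiling of the counts, and a cell without a UMI at this depth is not shown to lack the transcript.

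The selection rule also asked how the members stood in cells that were not cycling. Cells were classed by their summed UMIs of 97 S, G2 and M phase genes per 8000 UMIs, with cycle-low cells at 82 or fewer and cycle-high cells at 136.6 or more, cut points taken from UT cells. Cycle-low cells made up 30% and 30.3% of thinned UT cells and 58.4% and 58.6% of IR cells, and cycle-high cells 27% and 32.9% against 10.8% and 12.9%. These classes are ranges of a score and not cell types, and 17.2% to 30% of the cells of a library lay within 10% of a cut point. All 6 genes were lower in IR within cycle-low cells. CNTNAP2 stood at 28 and 33.2 CPM in cycle-low UT cells and at 4.01 and 4.82 CPM in cycle-low IR cells, where it held 12 and 15 counts. TTYH1 stood at 46.9 and 50.8 CPM against 12.7 and 14.5 CPM, RNF150 at 34.5 and 54.8 against 12.7 and 12.2, and PLCE1 at 52.8 and 43.2 against 17.4 and 12.8. MN1 stood at 41.7 and 51.3 CPM against 14.7 and 17.7, and IMPA2 at 34.5 and 42 against 14.4 and 11.9.

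Within cycle-low cells the log2 fold change was -2.84 ± 0.32 (SE) for CNTNAP2, -1.90 ± 0.23 for TTYH1, -1.90 ± 0.29 for RNF150, -1.72 ± 0.26 for PLCE1, -1.60 ± 0.26 for IMPA2 and -1.58 ± 0.25 for MN1. This contrast too is part of the selection, and 0.566% of 12728 genes tested were called in the lower direction there. In cells between the cut points the values ran from -1.34 (PLCE1) to -2.54 (MN1). In cycle-high cells, of which the IR libraries held 25 and 30, they ran from -0.72 ± 0.33 (TTYH1) to -1.66 ± 0.42 (CNTNAP2). MN1 was the member with its largest fall in the middle class, at 41.7 and 44.7 CPM in UT and 8.25 and 7.65 CPM in IR.

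The change in the mix of classes was set beside the fall itself. When the UT levels of the 3 cycle classes were weighted by the IR library's share of counts in each class, the result differed from the UT level by -0.13 to 0.18 on the log2 scale over the 6 genes and 2 experiments. CNTNAP2 went from 33.3 to 31.1 CPM in experiment 1 and from 31.6 to 33.7 CPM in experiment 2 by this weighting, and it was measured at 7.62 and 6.07 CPM in the thinned IR cells. TTYH1 went from 35 to 39.2 and from 38.3 to 42.4 CPM, upward in both experiments, and was measured at 11.5 and 15.6 CPM. The weighted values stayed near the UT levels for all members, with these 3 classes. What part a change in the mix of cells has in the fall was not tested.

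**Figure D3:**
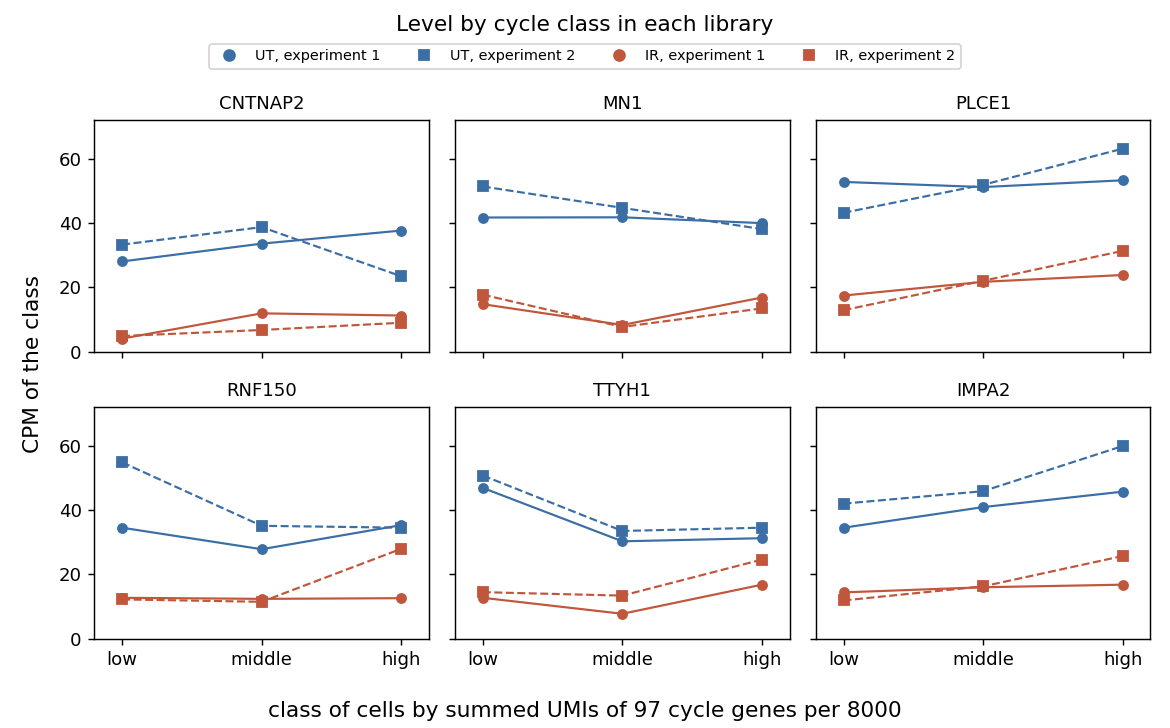
CPM (linear axis from 0) of the 6 genes in cells of low, middle and high summed cycle gene UMIs, 1 line per library, UT in blue and IR in red, experiment 1 solid with circles and experiment 2 dashed with squares. In each class the IR lines lie under the UT lines, and CNTNAP2 in cycle-low IR cells is at 4.01 and 4.82 CPM.

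The rule also named the relation of each member to the cycle genes across cells, so levels by class within a library are a description too, with no test of a member. Values were fitted with the library as a term (8 sums, 2 per library). Between cycle-high and cycle-low UT cells, 2 of the 6 members were past the edgeR threshold, in opposite directions, beside 21.6% of 12359 genes, and nothing is read from that count. TTYH1 was at 31.2 and 34.5 CPM in cycle-high UT cells against 46.9 and 50.8 CPM in cycle-low cells (log2 fold change -0.53 ± 0.19, SE), so both experiments had less of it in the cycle-high class. IMPA2 was at 45.7 and 59.9 CPM against 34.5 and 42 CPM (0.51 ± 0.19), the other way round. For PLCE1 the value was 0.34 ± 0.18, for MN1 -0.23 ± 0.19, for RNF150 -0.34 ± 0.21 and for CNTNAP2 -0.01 ± 0.23. CNTNAP2 went opposite ways in the experiments, from 28 to 37.6 CPM in experiment 1 and from 33.2 to 23.4 CPM in experiment 2.

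In IR cells 20.2% of genes were past the threshold between the same classes, and PLCE1 was the 1 member among them. It was at 23.8 and 31.3 CPM in cycle-high IR cells against 17.4 and 12.8 CPM in cycle-low cells (log2 fold change 0.92 ± 0.29). CNTNAP2 had the larger value, 1.18 ± 0.50, on 8 counts in the cycle-high cells of each IR library. The other values were 0.75 ± 0.32 for IMPA2, 0.76 ± 0.34 for RNF150, 0.64 ± 0.31 for TTYH1 and -0.10 ± 0.34 for MN1. The difference between these class contrasts in IR and UT was fitted as an interaction, where 0.477% of genes and no member were past the edgeR threshold (3 members had an unadjusted p under 0.05, and DESeq2 called none). Its largest values were 1.19 ± 0.54 for CNTNAP2, 1.17 ± 0.37 for TTYH1 and 1.10 ± 0.40 for RNF150, which was past the threshold without experiment 1 of IR, at 1.56. The counts within libraries were not firm: with DESeq2, and in edgeR without the library term, no member was past the threshold between cycle classes in either group. TTYH1 and IMPA2 in UT were no longer past it when either UT library was left out, nor was PLCE1 in IR without experiment 2 of IR.

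CDKN1A was the other measure named by the rule. Across the cells of a library it fell with the summed cycle genes (Spearman's rho -0.255 and -0.283 in UT, -0.349 and -0.392 in IR, 231 to 356 cells). The members' own correlations were weak. Against the summed cycle genes rho ran from -0.143 (RNF150, UT experiment 2) to 0.19 (IMPA2, IR experiment 1), and against CDKN1A from -0.164 (MN1, UT experiment 2) to 0.099 (RNF150, UT experiment 2). RNF150 was on the negative side of the cycle genes in both UT libraries (-0.085 and -0.143) and on the positive side in both IR libraries (0.108 and 0.149). Cells of 1 library share its preparation and every value is thinned to the same depth, and in counts this sparse such coefficients are descriptions only. Between members, rho in a library ran from -0.097 (RNF150 and TTYH1) to 0.237 (MN1 and RNF150, IR experiment 2).

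Cells in the upper and lower part of each library by CDKN1A UMIs were described in the same way, again with no test of a member. In UT the classes were separated at 1 and 2 UMIs in experiment 1 and at 0 and 2 UMIs in experiment 2, and 256 of 333 and 281 of 356 cells lay within 1 UMI of a cut point. In IR they were separated at 5 and 9 UMIs in experiment 1 and at 4.23 and 8.77 UMIs in experiment 2. Cells of equal CDKN1A level were thus not compared between the groups, and this holds for the interaction below too. Of all genes, 3.51% were past the edgeR threshold between these UT classes, and MN1 was the 1 member among them. It was at 30.3 and 32.1 CPM in CDKN1A-high UT cells against 49.5 and 53 CPM in CDKN1A-low cells (log2 fold change -0.74 ± 0.16). In UT cells above the cycle-low cut point MN1 was at 24 and 24.9 CPM against 50.5 and 51 CPM. In cycle-low UT cells it was at 39.9 and 42.2 CPM against 44.7 and 63.9 CPM, a smaller gap in experiment 1. The UT values of the other members ran from -0.22 (PLCE1) to 0.18 (CNTNAP2). In IR cells 9.19% of genes were past the threshold and IMPA2 was the 1 member among them, at 11.6 and 12.5 CPM in CDKN1A-high cells against 17.3 and 26.1 CPM in CDKN1A-low cells (-0.86 ± 0.26). MN1 was at 11.6 and 17 CPM against 12 and 11 CPM there (0.27 ± 0.28). In the interaction of class and irradiation 0.497% of genes and no member were past the edgeR threshold (2 members had an unadjusted p under 0.05, and DESeq2 called none), and its largest value was 1.01 ± 0.33 for MN1. With DESeq2 and without the library term no member was past the threshold in these classes, and the same held for MN1 without either UT library and for IMPA2 without experiment 2 of IR.

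CNTNAP2 and MN1 were ordered differently by phase in UT cells. Cells above the cycle-low cut point were split by whether their S phase or their G2 and M phase sum was larger relative to the UT median, a comparison added after the members' levels by class had been seen and therefore given with no test. In UT, MN1 was at 32.7 and 30 CPM in S-leaning cells and at 47.3 and 53.3 CPM in G2/M-leaning cells (log2 fold change -0.70 ± 0.17). CNTNAP2 went the other way, at 41.6 and 40.1 CPM in S-leaning cells against 30.4 and 21.6 CPM in G2/M-leaning cells (0.66 ± 0.19). CDKN1A itself was at 227.2 and 255.3 CPM in S-leaning UT cells against 196.4 and 144.1 CPM in G2/M-leaning ones. The values of MN1 by phase and by CDKN1A were not separated. For the other 4 members the UT values ran from -0.01 (IMPA2) to 0.31 (TTYH1), and MN1 was the 1 member past the edgeR threshold beside 2.65% of all genes. In IR, where 0.885% of genes were past it, no member was (edgeR, with an unadjusted p under 0.05 for 1). CNTNAP2 was there at 17.5 and 10.7 CPM in S-leaning cells against 6.87 and 5.37 CPM in G2/M-leaning cells (1.16 ± 0.39). MN1 in IR was at 9.18 and 9.78 CPM in S-leaning cells against 11.7 and 9.13 CPM in G2/M-leaning cells (-0.15 ± 0.38). Its 2 IR experiments thus went opposite ways. MN1 in UT was no longer past the threshold without either UT library or without the library term, and DESeq2 gave it no adjusted p here.

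Among UT cells with the highest cycle gene sums the contrast was widest. MN1 held 2 and 10 counts in the 21 and 38 S-leaning cycle-high UT cells, or 5.61 and 12.3 CPM, against 67 and 86 counts in the 69 and 79 G2/M-leaning ones, or 48.9 and 50.3 CPM. CNTNAP2 was at 70.1 and 40.6 CPM in the former and at 29.2 and 15.2 CPM in the latter. The 2 genes were thus ordered oppositely in both experiments. This narrower class was looked at after the split above and was not tested, and the IR libraries held only 7 and 3 such S-leaning cells.

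**Figure D4:**
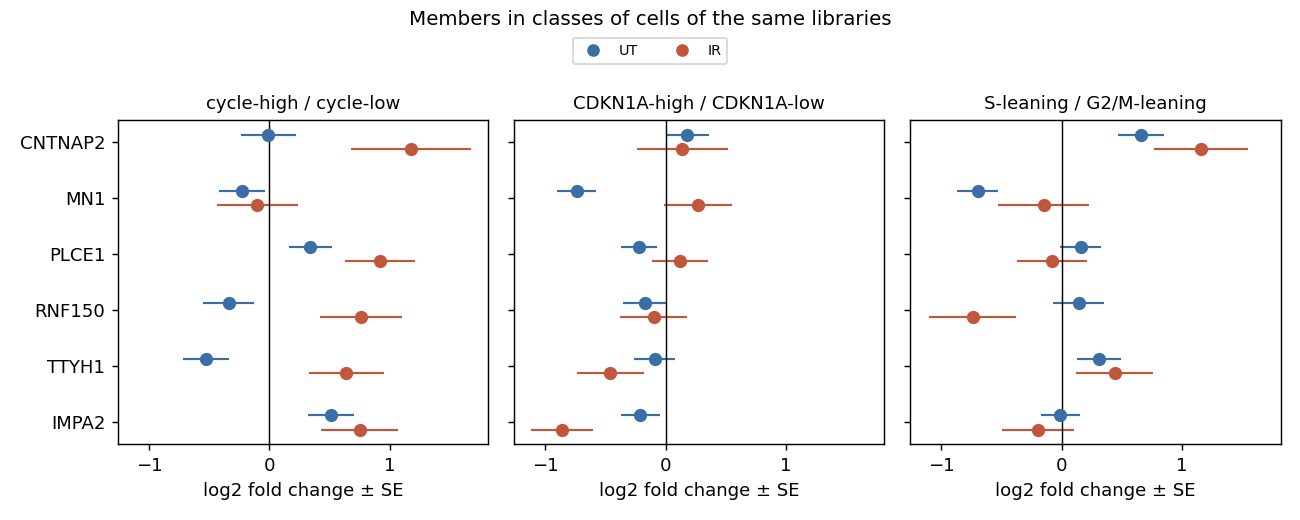
log2 fold change ± SE (edgeR, library as a term) of the 6 genes between classes of cells of the same libraries, UT in blue and IR in red. MN1 lies on the negative side in UT for CDKN1A-high over low (-0.74) and for S-leaning over G2/M-leaning cells (-0.70), and CNTNAP2 lies on the positive side of the latter in both groups (0.66 and 1.16).

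The genes whose thinned log counts followed each member most closely across cells were searched among 8291 genes seen in at least 10% of cells of every library, ranked by the smallest of the 4 within-library Pearson correlations. Only TTYH1 had companions above 0.15 in every library. Its correlation with IGFBP5, a secreted binding protein of insulin-like growth factors, reached 0.269 and 0.282 in the UT libraries against 0.351 and 0.282 in the IR libraries, followed by OSBPL10, a lipid-binding protein gene (0.169 to 0.21), and FN1, the gene for the matrix protein fibronectin (0.163 to 0.307). PLCE1 followed the transcription factor gene NFIA most closely (0.142 to 0.164), MN1 followed MAGED1 (0.118 to 0.143), RNF150 followed LPGAT1 (0.091 to 0.109), IMPA2 followed RAPH1 (0.084 to 0.104) and CNTNAP2 followed CBX5 (0.079 to 0.128). CNTNAP2, MN1, RNF150 and TTYH1 were themselves seen in under 10% of thinned cells in at least 1 IR library.

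TTYH1 was concentrated in cells rich in IGFBP5 in each library. In cells in the upper part of the IGFBP5 range TTYH1 was at 59.3 and 65.6 CPM in UT and at 18.1 and 32.9 CPM in IR, and in the lower part at 12.6 and 18.3 CPM in UT and at 5.7 and 6.35 CPM in IR. The ratio of upper to lower cells was 4.71, 3.58, 3.17 and 5.18 in UT experiments 1 and 2 and IR experiments 1 and 2. Split by FN1, it was 1.67, 1.71, 3.66 and 4.08 in the same order. TTYH1 was lower in IR on both sides of each split, but the limits were set within each library. For IGFBP5 they were 1 UMI (lower part) and 4 UMIs (upper part) in both UT libraries. In IR they were 0 and 1 UMI in experiment 1 and 0 and 2 UMIs in experiment 2. For FN1 they were 1 and 2 UMIs, except 1 and 4 in IR experiment 2. Cells of equal IGFBP5 level were thus not compared between the groups. IGFBP5 itself was at 432.9 and 440.7 CPM in UT and at 250.9 and 261.2 CPM in IR, while FN1 was at 236.2 and 264.3 CPM in UT and at 386.9 and 541.9 CPM in IR. Upper IGFBP5 cells had lower median cycle sums than lower ones (92 and 90 against 123 and 122 UMIs in UT, 46 and 35 against 66 and 72 in IR), and the part of that in the ratio was not tested. Since IGFBP5 and FN1 were picked by their likeness to TTYH1, these ratios are descriptions.

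**Figure D5:**
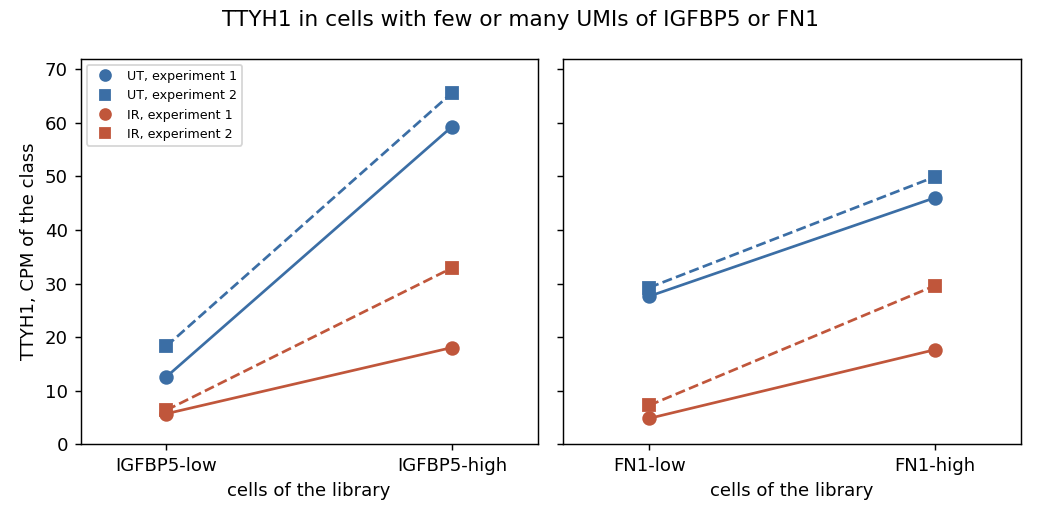
TTYH1 CPM (linear axis from 0) in cells with few or many UMIs of IGFBP5 (left) or FN1 (right), 1 line per library, UT in blue and IR in red. Every line rises from the low to the high class, from 12.6 to 59.3 CPM in UT experiment 1 for IGFBP5. Both IR lines stay under both UT lines at the low and the high end, with class limits that were set within each library and differ between libraries.

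Relatives of the members by family or pathway were tested between IR and UT with edgeR over all genes, where 1.63% of genes were called higher and 0.847% lower, and the median log2 fold change of all genes tested was 0.00. Called genes were few among the relatives, as among all genes tested. Nothing is read from the counts of called or uncalled relatives given below. Of 20 tested neurexin, contactin, neuroligin, potassium channel and regulatory relatives of CNTNAP2, 1 was called, TCF4, a basic helix-loop-helix transcription factor. It was at 137.4 and 160.4 CPM in UT and at 79.5 and 93.6 CPM in IR (log2 fold change -0.86 ± 0.16, edgeR adjusted p = 0.0482). The median of the 20 was 0.00. CNTNAP1 was at 14 and 11.8 CPM in UT and at 27 and 15 CPM in IR (0.63 ± 0.31, edgeR adjusted p = 0.351). The other tested genes of that name had values of -0.35 ± 0.32 (CNTNAP3), 0.10 ± 0.26 (CNTNAP3B) and -0.15 ± 0.38 (CNTNAP4), and none was called.

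Around PLCE1, 35 other phospholipase C, inositol lipid, inositol trisphosphate receptor, diacylglycerol kinase and protein kinase C genes were tested, with 1 called higher, 1 called lower and a median of 0.33 (DESeq2 called 2 higher and 1 lower). The largest log2 fold change among them was that of DGKA, another diacylglycerol kinase, at 49.4 and 26 CPM in UT and at 168.3 and 92.8 CPM in IR, which did not pass in edgeR (1.71 ± 0.40, adjusted p = 0.0921, and 1.9e-22 with the experiment as a block). DGKI, a kinase that consumes diacylglycerol, was at 18.9 and 16.6 CPM in UT and at 49.3 and 43.8 CPM in IR (1.31 ± 0.18, edgeR adjusted p = 0.0255). PRKCA, the protein kinase C alpha that diacylglycerol activates, was at 120.7 and 132 CPM in UT and at 63.5 and 75 CPM in IR (-0.95 ± 0.16, edgeR adjusted p = 0.0389). No other phospholipase C gene was called by edgeR without the block, and with it PLCD3 was (0.42 ± 0.17 without the block, adjusted p = 0.257, and 0.0011 with it). Of 28 RAS and RAP GTPases and their regulators none was called by edgeR or DESeq2 (1 had an unadjusted edgeR p under 0.05), with a median of 0.03 (RAP1A 0.02 ± 0.17). Around IMPA2, 30 inositol phosphatase, kinase and transporter genes had a median of 0.10, and 1 was called, INPP1, the inositol polyphosphate 1-phosphatase, at 24.5 and 21 CPM in UT and at 53.9 and 51.6 CPM in IR (1.13 ± 0.18, edgeR adjusted p = 0.0327). IMPA1, the paralogue of IMPA2, was at 52.7 and 53.4 CPM in UT and at 74.3 and 61.8 CPM in IR (0.28 ± 0.17, adjusted p = 0.445).

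No relative of the other members was called by edgeR or DESeq2. This covered 11 tweety and volume-regulated anion channel genes (median 0.09), 7 PA-TM-RING ligases (median -0.11) and 29 partners of MN1, among them the p300 and CBP acetyltransferases, PBX and MEIS factors and subunits of the BAF chromatin complex (median -0.25), with an unadjusted edgeR p under 0.05 for 1, 1 and 4 genes respectively. TTYH3, the tweety gene with most counts here, was at 381.9 and 344.8 CPM in UT and at 536.7 and 414.1 CPM in IR (0.31 ± 0.19, adjusted p = 0.44), and TTYH2 at 2.9 and 3.96 CPM in UT and at 4.18 and 9.7 CPM in IR (0.93 ± 0.45, adjusted p = 0.332). When the experiment entered as a block, which pairs the libraries, 14.3% of genes were called higher and 12.9% lower. On that scale the lipid and phospholipase C genes gave 13 higher and 2 lower, the inositol genes 5 and 1, the CNTNAP2 relatives 2 and 3, the tweety and channel genes 3 and 0, the RAS and RAP genes 3 and 1, the PA-TM-RING genes 1 and 1 and the MN1 partners 0 and 10. With the block, TTYH3 (edgeR adjusted p = 0.00612), TTYH2 (0.0183) and CNTNAP1 (0.0125) were called higher. IMPA1 (0.0838), CNTNAP3 (0.302), CNTNAP3B (0.781) and CNTNAP4 (0.803) were not called with it. Without the block, each of the 4 called relatives was lost when some single library was left out: DGKI without experiment 2 of UT or experiment 1 of IR, INPP1 without experiment 2 of UT or either IR library, and TCF4 and PRKCA without any 1 of the 4.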

How the data were processed

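Per the labels and the methods of the study, SORT-seq was run on U-2 OS cells with 1 cell per well, tagging polyadenylated RNA at its 3′ end with cell barcodes and UMIs of 6 bases. STARsolo was used by the authors to map read 2 to GRCh38, counting neither intronic reads nor reads shared between genes. The submitters' processing notes also name Seurat 5. The strand setting and the filter on barcodes were not given in the sources used here. Expected counts were deposited: 99.95% or more of them in each library lie, within rounding to 3 significant digits, on the correction for 4096 possible UMIs, so observed UMIs were recovered for thinning. The design had assumed plain counts.

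Groups and experiment numbers came from the sample titles. Counts were summed over all deposited cells, or over classes of thinned cells, with 92 spike-ins kept out of totals, rounded, filtered with filterByExpr, scaled by TMM and tested by the robust quasi-likelihood method of edgeR 4.0.16 (R 4.3.3), two-sided, at a Benjamini-Hochberg adjusted p under 0.05. No doublet caller was run, as 1 cell was sorted per well. IR against UT had group as its only term, and class contrasts had the library as a term. DESeq2 1.42.0, no filter, equal cell numbers, other class limits, the block and each library left out were alternatives. Class limits were the 30th and 70th percentiles of UT cells for cycle genes and the 33rd and 67th percentiles of each library for CDKN1A. The titles pair libraries by experiment, and over 14647 genes the deviations of paired libraries had a correlation of 0.635. The statistics were tested on simulated data with independent libraries and no experiment effect, so that test does not cover the pairing seen here. The study describes the experiments as independent sample sets; p-values cover only the spread between these libraries.

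The members and the lists were chosen with earlier results of these data known. Named genes were the members, up to 3 called genes per list of relatives by p, the 3 genes most like each member across cells, of which the first or all are given, and CDKN1A, MKI67, TOP2A and MCM2. CNTNAP1, CNTNAP3, CNTNAP3B, CNTNAP4, IMPA1, TTYH2, TTYH3, RAP1A, PLCD3 and DGKA were named outside this rule, after their values were seen. Of the anchors, MKI67 was at 423 and 368.9 CPM in UT and at 186.8 and 163.5 CPM in IR, and TOP2A at 377.9 and 417.4 against 194 and 242.6 CPM. Of 5 blood markers none was above 1 CPM in every library, and their sum was 0.511 and 0.872 CPM in experiment 1 (UT, IR) against 7.78 and 7.6 CPM in experiment 2, mostly PTPRC and CD3E.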

Additional observations from a re-analysis of the deposited data

How the results depend on the processing

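The fall of the 6 members in IR kept its direction under each of 8 alternatives, with log2 fold changes of -2.48 to -2.17 for CNTNAP2, -1.83 to -1.76 for MN1, -1.75 to -1.46 for IMPA2, -1.63 to -1.36 for RNF150, -1.59 to -1.52 for PLCE1 and -1.71 to -1.29 for TTYH1, whose value without experiment 2 of IR was the 1 of 48 that moved by more than its SE. The count of all genes called went from 363 to 1513 with no filter, to 3977 with the replicate block, which pairs libraries by experiment, and to 108 to 234 with 1 library left out. Of 404 values for members between classes of cells, 339 kept direction and side of the threshold, 25 lost the call, 9 gained it and 31 changed sign, and the cause was not tested. With DESeq2, genes called between cycle classes went from 2675 to 640 in UT, from 2500 to 731 in IR and from 59 to 2 for the difference, between CDKN1A classes from 458 to 77, 1201 to 198 and 65 to 3, and by phase from 326 to 50 in UT and 109 to 26 in IR, with 0 members called in each where it gave adjusted p-values. In the fit with no replicate block the same counts were 552, 628, 0, 7, 48, 0, 31 and 4, with 0 members called. With no filter, the CDKN1A difference had 148 genes, the phase contrast in IR 168, and 1 member was called between cycle classes in UT. A split at the median called 1 member by cycle class in UT (of 2007 genes called), 3 in IR (of 2466) and 0 by CDKN1A in IR (of 1017). Unthinned classes called 2 members by cycle class in IR (of 2666 genes) and 0 by CDKN1A in IR (of 1292), and all thinned cells called 2 by phase in UT (of 342). Signs changed for CNTNAP2 by cycle class in UT (0.04 with no filter, 0.02 with the median split and 0.02 with no replicate block) and by CDKN1A in IR (-0.08 with the median split), for RNF150 by CDKN1A with unthinned classes (0.09 in UT, -0.32 for the difference), for IMPA2 by phase in UT (0.01 with DESeq2, 0.15 with all thinned cells), and by phase in IR with all thinned cells for MN1 (0.14), PLCE1 (0.07) and IMPA2 (0.15). With 1 library left out, cycle classes in UT gave 1209 to 3293 genes and 0 to 2 members (CNTNAP2 -0.46 to 0.48, RNF150 -0.62 to 0.09), in IR 1084 to 2385 genes and 0 to 3 members (MN1 -0.37 to 0.21), and for the difference 15 to 133 genes and 0 to 1 members (IMPA2 -0.28 to 0.63, MN1 -0.13 to 0.43). CDKN1A classes in UT gave 175 to 868 genes and 0 to 1 members (CNTNAP2 -0.02 to 0.42, IMPA2 -0.41 to 0.00, RNF150 -0.50 to 0.14), in IR 773 to 1230 genes and 0 to 1 members (MN1 -0.07 to 0.60, PLCE1 -0.31 to 0.50), and for the difference 50 to 175 genes (CNTNAP2 -0.28 to 0.16, PLCE1 -0.09 to 0.72, RNF150 -0.23 to 0.41). Phase in UT gave 123 to 845 genes and 0 to 2 members (IMPA2 -0.09 to 0.15, RNF150 -0.32 to 0.53), and in IR 131 to 199 genes (IMPA2 -0.65 to 0.15, MN1 -0.38 to 0.08, PLCE1 -0.72 to 0.59). Where this left 1 library in a group, that library was assumed to vary like the others. The class contrasts are descriptions, since the rule named the relation to cycle genes and CDKN1A. Depth limits the members in IR, where the cycle-high cells held 8 counts of CNTNAP2 in each library and smaller classes as few as 1.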

Other observations

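Within cycle-low cells, PLCE1 was ordered oppositely by CDKN1A in the 2 groups. In UT it was at 69.8 and 66.8 CPM in CDKN1A-low cells (39 and 25 cells, 39 and 23 counts) and at 43 and 36.8 CPM in CDKN1A-high cells (61 and 67 cells). In IR it was at 13.2 and 7.11 CPM in CDKN1A-low cells, on 9 and 4 counts, and at 23.5 and 16.9 CPM in CDKN1A-high cells. CNTNAP2 in CDKN1A-low, cycle-low cells was at 28.6 and 52.2 CPM in UT and at 2.92 and 1.78 CPM in IR, on 2 and 1 counts. These cells were singled out after their values had been seen, the difference was not tested, and the IR values rest on few counts. The CDKN1A limits were set within each library. CDKN1A itself was at 112.7 and 29 CPM in the CDKN1A-low, cycle-low cells of UT and at 548.7 and 405.6 CPM in those of IR. Cells of equal CDKN1A level were thus not compared between the groups.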
